A study of Haberlea rhodopensis with 10 samples.

Results

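Severe dehydration (D20) was compared with slight dehydration (D75) in leaves of Haberlea rhodopensis, a resurrection plant of the Balkans. The comparison rests on 4 of the 10 RNA-seq libraries, 2 per stage, chosen by their stage labels, and on the 85267 of 142473 unigenes (assembled transcripts) that reached an FPKM of 1 in 2 or more of the 10. It addresses which transcripts separate the beginning of drying from the advanced stage, that is, where an early drying programme gives way to a late one. FPKM, the fragments of a unigene relative to its length and to the library total, is shown here rescaled by TMM factors as "scaled FPKM", so levels may be compared between genes. The plants were propagated in vitro, grown in pots for about a year and dried by withholding water. Leaf relative water content (RWC) was given as 75% at D75 and 20% at D20. The other stages were regularly watered plants (F, 90% RWC, or about 100% in the sample characteristics), dry plants (DT, 6% RWC, or under 5%) and rewatered plants (R, 90% RWC, or about 100%). At least 4 plants were taken per sampling point, but their division over the 2 libraries was not stated, so p-values measure only the spread between libraries. Raw reads of D75 and D20 had one length and those of F, DT and R another. The latter 3 stages enter the results through the fit, which takes its spread from all 10 libraries, and through the peak sets described at the end, which use their means.

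Resurrection plants survive the loss of nearly all leaf water, and Haberlea keeps its chlorophyll while dry. Desiccation tolerance of leaves draws on genes that many plants use in maturing seeds, among them late embryogenesis abundant (LEA) proteins, which shield membranes and proteins, and enzymes of sucrose and raffinose-family sugars, which help to stabilise a dry cytoplasm. Abscisic acid (ABA), the main hormone of water deficit, closes stomata and switches on many of these genes, while growth and photosynthesis are turned down. Gene names below are descriptions of the best database hit in another species, so each is a match by sequence, not a characterised Haberlea gene.

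Depth was even, from 12192865 to 12734565 fragments in the 4 libraries. The replicates of D75 differed more from each other than those of D20. The median absolute log2 difference between replicates was 0.51 at D75 and 0.23 at D20, and 4.17% of tested unigenes differed more than 4-fold between the D75 replicates against 0.218% at D20. Unigenes with at least 1 fragment numbered 114107 and 109344 at D75 and 96333 and 98771 at D20. Ribosomal RNA made up 6.60% of D75 replicate 1, 9.77% of D75 replicate 2, 2.72% of D20 replicate 1 and 9.96% of D20 replicate 2. With ribosomal RNA and plastid unigenes left out, the calls described below numbered 9126 higher and 12332 lower, against 8595 and 13056 with them. The calls of 76 unigenes named here stayed the same in that fit. Which of the D75 libraries is the less typical was not tested, and the value without one of them is given beside each named unigene whose call depends on it.

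Of the leaf mesophyll markers (chlorophyll a-b binding proteins, RuBisCO small chains and RuBisCO activase), 48 of 60 fell and their summed level went from 21000 and 29583 scaled FPKM at D75 to 686 and 1098 at D20, with 9 members at 0 in both D20 libraries. Guard cell markers summed to 18.8 and 19.2 at D75 and to 39.5 and 25.3 at D20, with 2 of 14 higher and 5 lower. The 3 contigs named KAT3 in this list made up 33.4 and 19.9 of the D20 sums, against 4.20 and 10.6 at D75. The other 11 members went from 14.6 and 8.59 to 6.09 and 5.42. Vascular markers summed to 53.6 and 97.9 and then to 447 and 366, with 3 of 11 higher and 2 lower. There the 2 contigs of the sucrose carrier SUC4 went from 42.3 and 82.2 to 441 and 361, while the other 9 members had 11.3 and 15.8 at D75 and 6.67 and 5.51 at D20. Epidermis markers summed to 88.8 and 59.7 and then to 26.1 and 35.3, with 10 of 49 lower. Of the guard cell, vascular and epidermis lists, 3, 2 and 7 members were at 0 in both D20 libraries. In bulk leaf RNA, fewer cells of a type and less RNA per cell cannot be told apart.

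Gene-specific primers of the study locate 20 unigenes in the assembly. Those of 6 are shown, written 5′ to 3′ in lower case, because each marks one side of the switch described below: a pigment-binding early light-induced protein, a pair of LEA proteins, a galactinol synthase, a chlorophyll synthesis enzyme and an ethylene pathway F-box protein.
Early light-induced protein 1 (Unigene32083) forward: tggttgaggatggtggtg
Early light-induced protein 1 (Unigene32083) reverse: tgtccgtagcctttgtgc
Late embryogenesis abundant protein (CL12215.Contig1) forward: aaggtgggaggaggaaga
Late embryogenesis abundant protein (CL12215.Contig1) reverse: gtgacggctgtagtgctg
Lea14 homolog (CL15119.Contig1) forward: ccaacatctgcgttcacaat
Lea14 homolog (CL15119.Contig1) reverse: catcgtatcgtcgtttcctt
Galactinol synthase 2 (Unigene42048) forward: ctggaagaggtgaaggtggtc
Galactinol synthase 2 (Unigene42048) reverse: cggtggcaatgaaatgaac
Protochlorophyllide reductase (CL15566.Contig1) forward: aatcgtcggctccatcac
Protochlorophyllide reductase (CL15566.Contig1) reverse: cgaagtctcctccatctatca
EIN3-binding F-box protein 2 (CL8725.Contig4) forward: acgctcaaggtcttcaaatg
EIN3-binding F-box protein 2 (CL8725.Contig4) reverse: gcaacacttacggaggcac

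Between D75 and D20, LEA and early light-induced proteins, many protein phosphatases 2C, beta-amylase 1 and several stress transcription factors rose, while many nuclear genes of light harvesting and carbon fixation and of growth hormones fell. With a 2-fold or larger change at an adjusted p below 0.05 (edgeR quasi-likelihood test, Benjamini-Hochberg), 8595 unigenes were higher at D20 (10.1% of those tested) and 13056 were lower (15.3%). With the stricter limit of the study, an adjusted p of at most 0.001, the differentially expressed genes (DEGs) numbered 806 higher (0.945%) and 1475 lower (1.73%). With stages at 0 fragments set to a floor of 3 per library, 5960 of the lower unigenes and 2751 of the higher ones changed 8-fold or more. No fragment was counted in either D20 library for 2278 of the lower unigenes, nor in either D75 library for 553 of the higher ones.

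**Figure D1:**
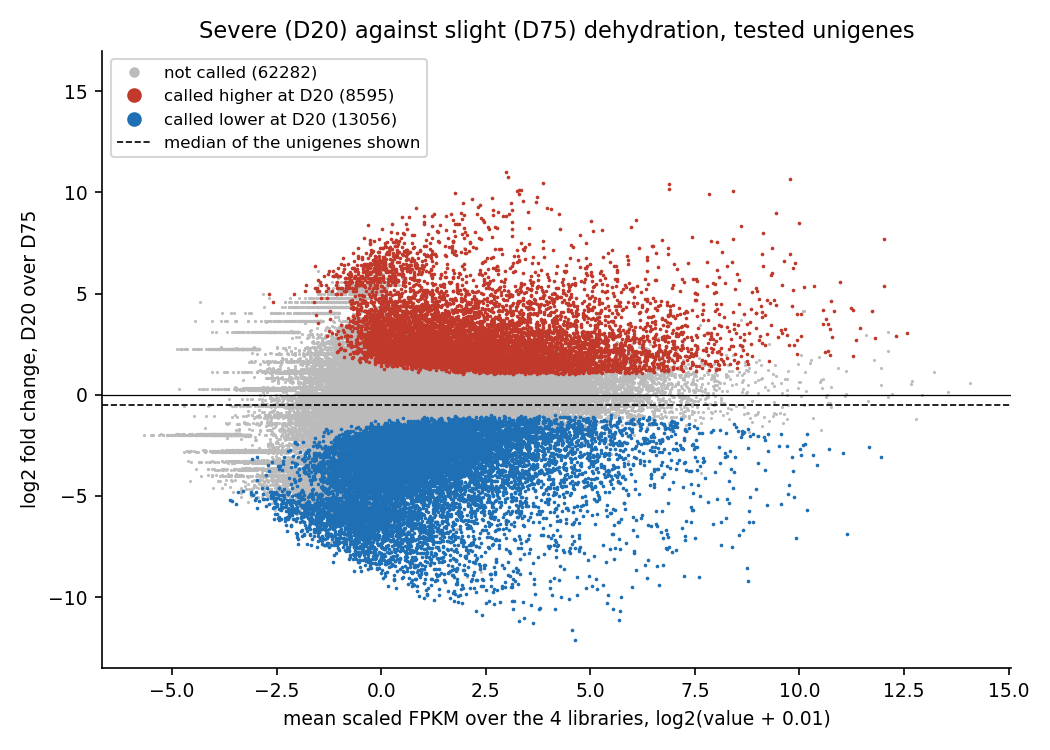
Log2 fold change of D20 over D75 (vertical axis) against the mean scaled FPKM of the 4 libraries on a log2 scale (horizontal axis), 1 point per tested unigene with a fragment in them, coloured by call. The 13056 lower unigenes (blue) outnumber the 8595 higher ones (red), the dashed median lies at −0.50, and points in rows at low abundance have a stage at 0 fragments, where the fitted change depends on the prior count.

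The median log2 change over the 83933 tested unigenes with a fragment in the 4 libraries was −0.50, and −0.18 at the floor. Split into 10 classes of equal size by abundance, it ran from −2.02 in the least abundant class (0.00 at the floor) to 0.53 in the most abundant. Scaling to library totals only moved this median to −0.88 and the counts to 5934 higher and 16598 lower. List medians below are therefore read against −0.50, each with its value at the floor where the 2 differ by more than 0.1. Values at the floor are read against −0.18. Without D75 replicate 1, 8422 unigenes were higher and 13447 lower, and 79.0% of the higher and 77.5% of the lower calls were made again. Without D75 replicate 2, 13542 were higher and 16488 lower. With a single D20 library the counts dropped to 4102 higher and 4496 lower without replicate 1, and to 4382 and 5243 without replicate 2. Fitted without the other 6 libraries, the 4 libraries gave 2080 higher and 2722 lower. Of 76 unigenes named here and followed through all settings, 23 were no longer called. For these 76, calls lost without 1 of the 4 libraries, or where that did not happen with the 4 libraries only, are named beside the gene.

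Gene lists built from the annotation text showed the split by function. Early light-induced proteins, LEA proteins, heat stress factors and raffinose-family enzymes had the largest shares of higher unigenes among the lists described here. After the mesophyll markers above, light-harvesting, photosystem, Calvin cycle and photorespiration genes had the largest shares of lower ones. Lists are described by counts and medians and were not tested as sets. Of 122 counts of higher or lower unigenes per list, 111 stayed within 1.5 times when D75 replicate 1 was left out and 79 when D75 replicate 2 was. With replicate 1 or 2 of D20 left out, 22 and 30 did, and 9 with the 4 libraries only.

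**Figure D2:**
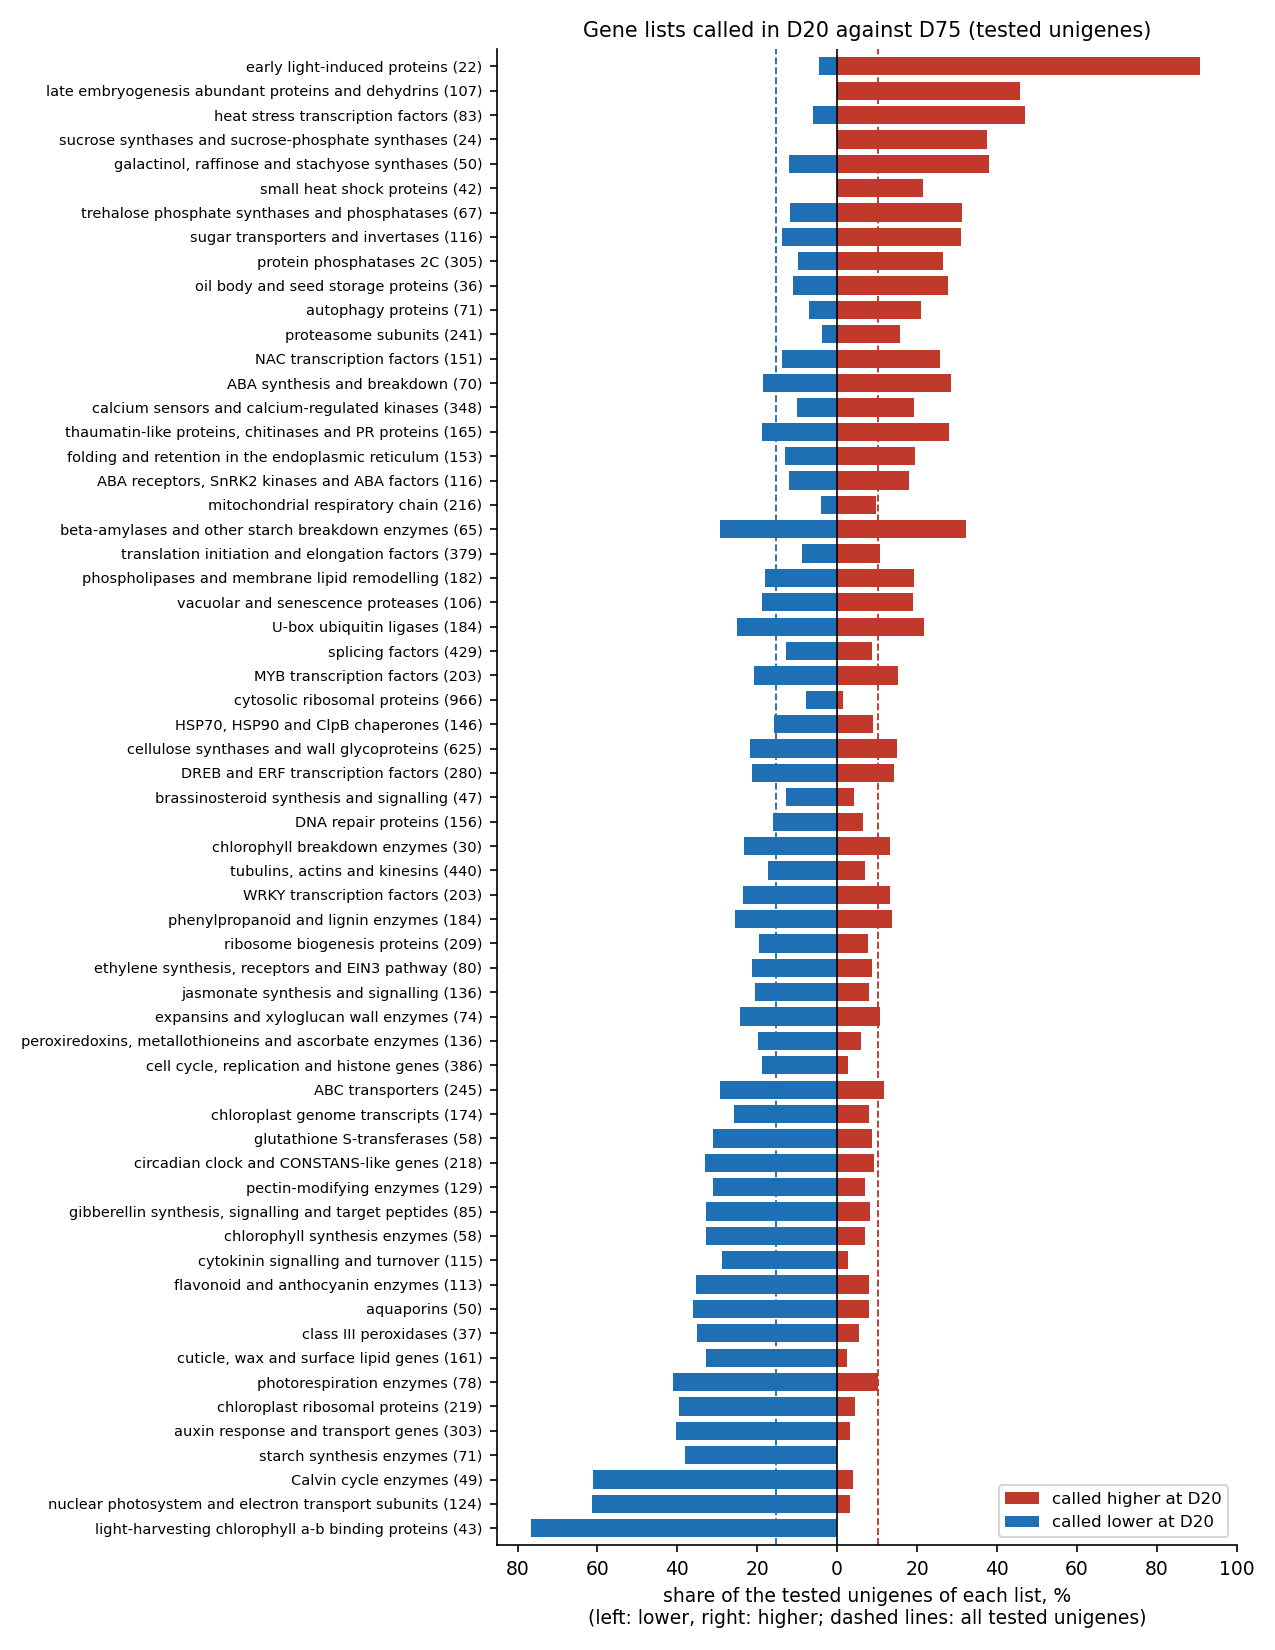
Share in percent of the tested unigenes of each gene list that were called higher (red, right) or lower (blue, left) at D20 than at D75, with the number tested in brackets. Dashed lines mark the shares over all tested unigenes, 10.1% and 15.3%; early light-induced proteins reach 90.9% higher and light-harvesting proteins 76.7% lower.

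LEA proteins and dehydrins rose widely: 49 of 107 tested unigenes (45.8%) were higher and the other 58 were not called, with a median log2 of 1.86 (74 higher without D75 replicate 2). Their summed level was 35828 and 73141 scaled FPKM at D75 and 153600 and 127619 at D20. The LEA protein CL12215.Contig1 stood at 2.93 and 24.9 scaled FPKM at D75 and at 1764 and 1701 at D20. Both D20 libraries lay far above both D75 libraries, a log2 change of 6.96 ± 0.95 (SE, n = 2 per stage, adjusted p = 0.000523). The Lea14 homolog CL15119.Contig1, a desiccation protectant, had 78.2 and 316 at D75 and 3879 and 3046 at D20, a log2 change of 4.13 ± 0.90 (adjusted p = 0.00646), and stayed at a mean of 3848 in DT. Late embryogenesis abundant protein 76 (Unigene18390) was already abundant at D75, with 679.9 and 1686, and reached 10109.6 and 7713 at D20 (log2 2.91 ± 0.70, adjusted p = 0.0108, with the call lost without D20 replicate 1 at 2.79).

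Other LEA-type transcripts were absent or low at D75. Em-like protein GEA1 (CL7090.Contig1), a seed-type LEA protein, had 0 fragments in both D75 libraries and 20.8 and 41.7 scaled FPKM at D20, at least 33.1-fold higher. The most abundant members differed less between the stages. The desiccation-related protein PCC6-19 (Unigene36452), named from the resurrection plant Craterostigma, had 9743 and 17609 at D75 and 20726 and 20662 at D20 (log2 0.60 ± 0.77, adjusted p = 0.587). Another late embryogenesis abundant protein 76 contig, CL2346.Contig2, differed within D75, with 117 in replicate 1 and 11793 in replicate 2, against 12994 and 13008 at D20. Its log2 change was 1.13 ± 1.23 (adjusted p = 0.522) and reached 6.80 with a call without D75 replicate 2.

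Early light-induced proteins, chloroplast proteins related to light-harvesting proteins that accumulate under light stress and bind pigments, had the highest share of rises: 20 of 22 (90.9%) were higher and 1 lower, with a median log2 of 5.28 (5.06 at the floor). Their sum went from 161 and 1440 scaled FPKM to 39949 and 30987. CL3769.Contig7 stood at 2.92 and 77.6 at D75 and at 10586 and 6013 at D20, a log2 change of 7.69 ± 1.29 (adjusted p = 0.00158), not called with the 4 libraries only (adjusted p = 0.0579). Replicates at D75 were wider apart on a ratio scale in CL3769.Contig5, with 2.08 and 385, before 8509 and 7751 at D20 (log2 5.39 ± 1.5, adjusted p = 0.0207). Its call was lost without D20 replicate 1 (5.41) or 2 (5.53), and the log2 change was 4.40 without D75 replicate 1. Unigene32083 was more even, with 62.9 and 174 and then 2012 and 1694 (log2 3.97 ± 0.61, adjusted p = 0.000992). All of these had their highest mean in DT, not at D20. Contigs of cluster CL3769 may share reads, and the sum of that cluster rose by a log2 of 6.13.

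Heat stress transcription factors, which drive chaperone genes, were higher in 39 of 83 unigenes (47.0%) and lower in 5, with a median log2 of 1.46. The A-2b contig CL3610.Contig1 had 0.736 and 13.2 scaled FPKM at D75 and 173 and 112 at D20 (log2 4.36 ± 0.97, adjusted p = 0.00735), not called with the 4 libraries only (adjusted p = 0.0962). A more abundant A-2b contig, CL3610.Contig4, had 49.8 and 91.5 and then 160 and 131 without passing the test (log2 1.04 ± 0.67, adjusted p = 0.269). The sum over their cluster rose by a log2 of 2.28. The chaperones were less uniform. Small heat shock proteins, which hold unfolding proteins, were higher in 9 of 42 (21.4%), and the 18.2 kDa class I member CL882.Contig3 went from 4.02 and 6.94 to 110.1 and 97.7 (log2 4.25 ± 0.61, adjusted p = 0.000689) with a mean of 611 in DT. HSP70, HSP90 and ClpB chaperones were higher in 13 of 146 and lower in 23, with a median of −0.49, beside −0.50 over all unigenes. Heat shock cognate 70 kDa protein 2 (CL1701.Contig2) rose from 364 and 816 to 2561 and 2471 (log2 2.09 ± 0.58, adjusted p = 0.0204). That call was lost without D20 replicate 1 (2.15), D20 replicate 2 (2.18) or D75 replicate 1 (1.62). HSP90-2 (CL4583.Contig7) had 568 and 574 and then 289 and 316 (log2 −0.92 ± 0.45, adjusted p = 0.155), and was called lower with library totals only (−1.31).

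Among other protective transcripts, type 2 metallothionein (CL635.Contig3), a metal-binding protein, rose from 813 and 1806 to 9551 and 12284 scaled FPKM (log2 3.06 ± 0.65, adjusted p = 0.00549). Its list of peroxiredoxins, metallothioneins and ascorbate enzymes was higher in only 8 of 136 (5.88%) and lower in 27 (19.9%). Oleosin 1 (CL4800.Contig2), a coat protein of seed oil bodies, was at 0 in both D75 libraries and at 0.940 and 37.2 at D20, at least 60.3-fold higher by the mean but uneven between replicates and not called with the 4 libraries only (adjusted p = 0.0938). CYSTM1 family protein A (CL3154.Contig1) went from 1.21 and 4.23 to 1347 and 1415 (log2 8.99 ± 0.74, adjusted p = 6.03e-05). Hydrophobic protein LTI6B (Unigene28868), a small membrane protein, went from 111 and 355 to 5115 and 4025 (log2 4.29 ± 0.75, adjusted p = 0.00188). Both were picked by rules that required no overlap between the libraries of the stages. Of all unigenes called higher 99.9% had no overlap, and of all tested unigenes 26.1% had none with D20 higher. Glutathione S-transferases, which conjugate toxic compounds, went the other way, with 5 of 58 higher and 18 lower (31.0%), and with 10 higher without D75 replicate 2.

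**Figure D3:**
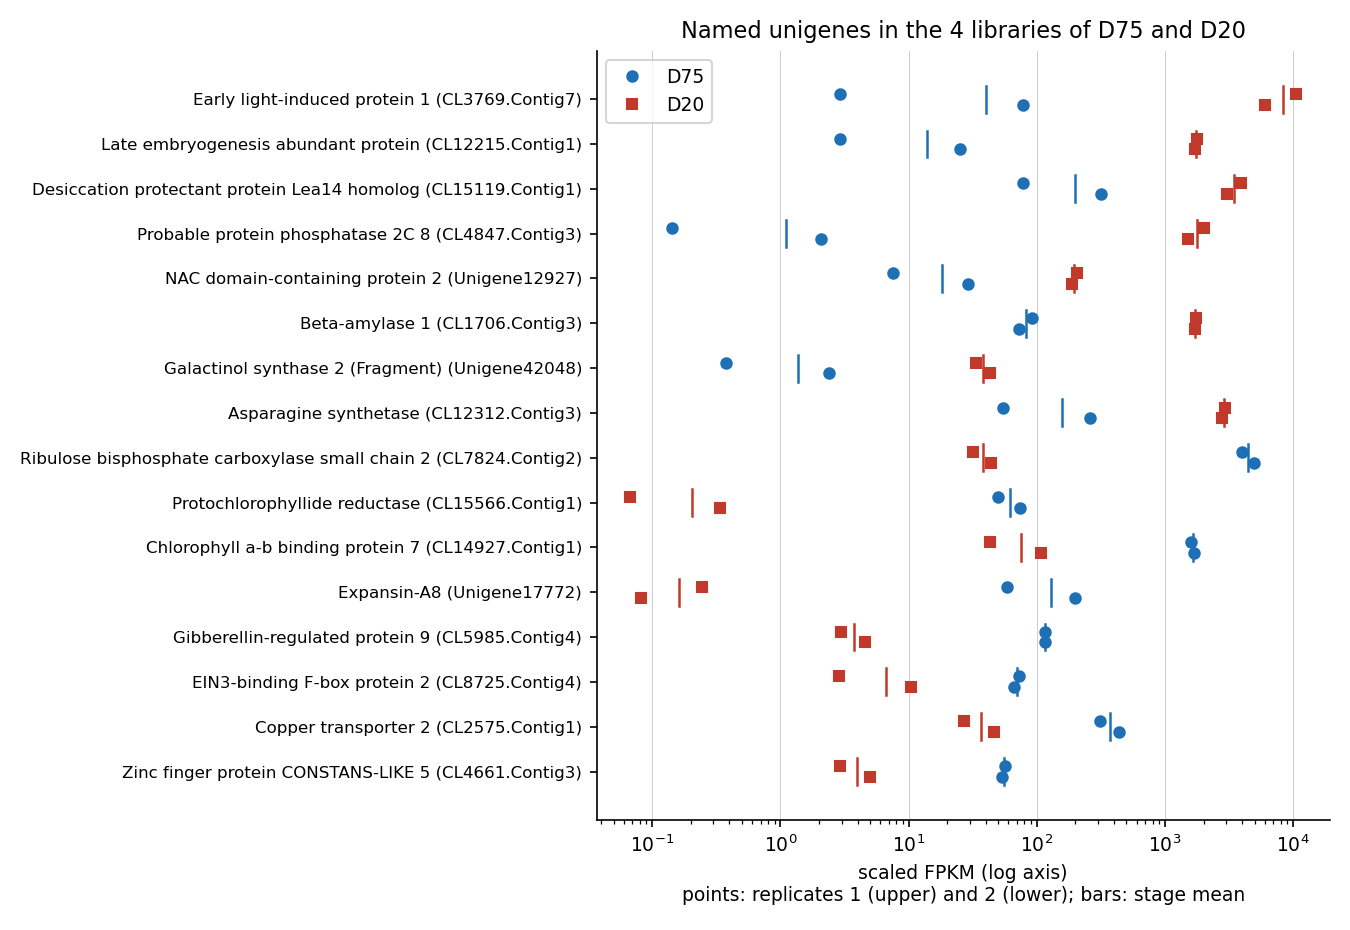
Scaled FPKM (log axis) of 16 named unigenes in each library, D75 in blue circles and D20 in red squares, replicate 1 above replicate 2, with a bar at the stage mean. The 8 upper unigenes lie higher at D20 and the 8 lower ones lower, and D75 replicates spread most in CL3769.Contig7 (2.92 and 77.6).

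Regulators of the ABA response changed in both directions. Protein phosphatases 2C, a family that includes the negative regulators of ABA signalling, were higher in 81 of 305 (26.6%) and lower in 30. Of the 305, 37 were called higher and peaked at D20 (at least 2 times the mean of every other stage), as did 2313 of all 85267 tested unigenes. The higher ones numbered 122 without D75 replicate 2. Protein phosphatase 2C 8 (CL4847.Contig3) stood at 0.142 and 2.06 scaled FPKM at D75, at 2015 and 1507 at D20, and at a mean of 278 in DT. The log2 change was 10.66 ± 1.17 (adjusted p = 0.000165). ABA receptors, SnRK2 kinases and ABA factors were higher in 21 of 116 and lower in 14, and ABSCISIC ACID-INSENSITIVE 5-like protein 7 (Unigene32434), a bZIP factor, fell from 117 and 154 to 2.14 and 1.56 (log2 −6.19 ± 0.61, adjusted p = 0.000108). The receptor PYL1 (CL3961.Contig1) had 16.2 and 54.7 and then 53.5 and 72.2 (log2 0.83 ± 0.53, adjusted p = 0.268), with overlapping libraries, and was called higher without D75 replicate 2 (1.95). Zeaxanthin epoxidase (CL6266.Contig3), an early enzyme of ABA synthesis, rose from 8.92 and 14.4 to 58.3 and 47.4 (log2 2.18 ± 0.41, adjusted p = 0.00302). A more abundant contig of that name, CL10949.Contig2, had 13.9 and 99.1 and then 157 and 122 without passing the test (log2 1.30 ± 0.67, adjusted p = 0.168). It was called higher without D75 replicate 2 (3.33).

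Transcription factors separated by family. NAC factors, many of which act in stress and leaf senescence, were higher in 39 of 151 (25.8%) and lower in 21 (13.9%), with a median log2 of 0.81. NAC domain-containing protein 2 (Unigene7210) went from 18.8 and 44.1 to 568 and 442 (log2 4.01 ± 0.57, adjusted p = 0.000644). MYB44 (Unigene33352), a stress regulator in Arabidopsis, went from 9.74 and 17.7 to 327 and 371 (log2 4.67 ± 0.52, adjusted p = 0.000166). TGA2 (Unigene2049), a bZIP factor of salicylic acid responses in Arabidopsis, was nearly silent at D75 with 0.216 and 0.720 and reached 428 and 492 (log2 9.94 ± 0.89, adjusted p = 7.03e-05). In the MYB family as a whole 31 of 203 were higher and 42 lower, and in the WRKY family 27 of 203 higher and 48 lower (46 higher without D75 replicate 2). DREB and ERF factors, which bind dehydration and ethylene response elements, were higher in 40 of 280 (14.3%) and lower in 60 (21.4%), with a median of −0.70 (−0.34 at the floor). Without D75 replicate 2 the balance turned to 92 higher and 56 lower, with a median of 0.01. Single members are described with the early peak.

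In starch metabolism, a beta-amylase rose while many synthesis enzymes fell. Beta-amylase 1 (CL1706.Contig3), which releases maltose from chloroplast starch, stood at 91.1 and 72.0 scaled FPKM at D75 and at 1743 and 1710.2 at D20 (log2 4.40 ± 0.53, adjusted p = 0.00026). The summed level of starch breakdown enzymes went from 820 and 750.2 to 4409 and 4002, yet by number 21 of 65 were higher and 19 lower. Starch synthesis enzymes were lower in 27 of 71 (38.0%), with a median log2 of −1.30 (−1.16 at the floor), and the other 44 were not called. The granule-bound starch synthase contig CL8620.Contig2 was among those called lower but rested on 1 library, with 670.4 in D75 replicate 1, 1.29 in D75 replicate 2, and 2.52 and 6.09 at D20. Its log2 change was −6.29 ± 1.74 (adjusted p = 0.0206) and turned to 1.74 without D75 replicate 1, and the call was also lost without D20 replicate 1 (−5.70) or 2 (−6.99).

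Raffinose-family enzymes were higher in 19 of 50 (38.0%) and lower in 6, with a median log2 of 1.07 (0.83 at the floor), and sucrose and sucrose-phosphate synthases were higher in 9 of 24 (37.5%), with a median of 1.39 (1.09 at the floor) and 5 higher without D75 replicate 1. A raffinose synthase (galactinol--sucrose galactosyltransferase, CL15513.Contig6) went from 18.0 and 81.8 to 1385 and 1208 scaled FPKM (log2 4.70 ± 0.74, adjusted p = 0.00112). The summed level of the raffinose-family list overlapped between the stages, with 7751 and 3656 scaled FPKM at D75 and 6047 and 5481 at D20. Galactinol synthases, which make the galactosyl donor of raffinose, differed by gene. Galactinol synthase 2 (Unigene42048) rose from 0.379 and 2.38 to 33.2 and 43.3 (log2 4.81 ± 0.67, adjusted p = 0.000574). Galactinol synthase 1 (CL2862.Contig8) was lower at D20, with 4108 and 481 at D75 and 286 and 297 at D20 (log2 −2.98 ± 0.77, adjusted p = 0.0146), but its D75 mean rested on replicate 1 and the log2 change was −0.72 without it, with no call. That call was also lost without D20 replicate 1 (−2.86) or 2 (−2.94). Sucrose synthase 2 (CL9818.Contig1) rose from 98.9 and 154 to 1141 and 732 (log2 2.89 ± 0.61, adjusted p = 0.00524). Sugar transporters and invertases were higher in 36 of 116 (31.0%) and lower in 16, and the vacuolar-type sucrose carrier SUC4 (CL6521.Contig3), a member of the vascular marker list, went from 34.1 and 58.3 to 326 and 267 (log2 2.68 ± 0.47, adjusted p = 0.00192).

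An asparagine synthetase and a phospholipase D were among the other unigenes that rose. The asparagine synthetase CL12312.Contig3, which stores nitrogen in asparagine, went from 54.8 and 262 to 2949 and 2766 scaled FPKM (log2 4.17 ± 0.88, adjusted p = 0.00553), not called with the 4 libraries only (adjusted p = 0.0516). Phospholipase D alpha 1 (CL14329.Contig5), which releases phosphatidic acid from membranes, went from 40.1 and 55.5 to 420.0 and 368 (log2 3.04 ± 0.46, adjusted p = 0.000906). No overlap between the libraries of the stages was required when the asparagine synthetase was picked. Over phospholipases and membrane lipid genes as a whole, 35 of 182 were higher and 33 lower, with a median log2 of −0.13 (0.00 at the floor).

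Nuclear genes of photosynthesis were lower in large shares. Light-harvesting chlorophyll a-b binding proteins were lower in 33 of 43 (76.7%) and the other 10 were not called, with a median log2 of −5.47 (−4.73 at the floor) and a summed level of 7945 and 16120 scaled FPKM at D75 and 486 and 826 at D20. Nuclear photosystem and electron transport subunits were lower in 76 of 124 (61.3%) and higher in 4. Calvin cycle enzymes were lower in 30 of 49 (61.2%) and higher in 2. Photorespiration enzymes were lower in 32 of 78 (41.0%) and higher in 8. Without D75 replicate 2, the higher ones numbered 7 in the light-harvesting list, 9 among the photosystem and electron transport subunits and 14 among photorespiration enzymes. Transcripts of the chloroplast genome, which encodes core subunits of the photosystems, were lower in 45 of 174 (25.9%) and higher in 14. Their median log2 was −1.24 (−0.94 at the floor). Their summed level of 3515 and 7510 scaled FPKM at D75 and 6788 and 6462 at D20 overlapped between the stages. Of this, 1973 and 4625 and then 5367 and 3902 came from Unigene8135, described as vegetative cell wall protein gp1. CL868.Contig12, described as uncharacterized protein ORF91, gave 834 and 1749 and then 328 and 1516. The sums thus rest largely on these unigenes, neither of them named as a photosystem subunit.

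The RuBisCO small chain CL7824.Contig2 stood at 3966 and 4942 scaled FPKM at D75 and at 31.6 and 44.1 at D20, a log2 change of −6.88 ± 0.72 (adjusted p = 0.000134), and had means of 7846 in F, 426 in DT and 7208 in R. RuBisCO activase, which keeps RuBisCO active, fell in CL17828.Contig3 from 2157 and 1502 to 40.1 and 70.4 (log2 −5.05 ± 0.50, adjusted p = 0.000108). Chlorophyll a-b binding protein 7 (CL14927.Contig1) went from 1598 and 1685 to 42.9 and 108 (log2 −4.44 ± 0.59, adjusted p = 0.000471). The D75 libraries were close together in these genes and far above D20. The antenna protein CP24 (CL13197.Contig2) had 21.1 and 165 at D75 and 0 in both D20 libraries, at least 67.7-fold lower, a call lost with the 4 libraries only (adjusted p = 0.052). Other subunits fell less: the photosystem II 10 kDa polypeptide (Unigene1712) went from 5332 and 5802 to 884 and 984 (log2 −2.58 ± 0.59, adjusted p = 0.00835), and photosystem I subunit II (Unigene10006) from 754 and 1643 to 284 and 334 (log2 −1.96 ± 0.51, adjusted p = 0.0157). Both calls were lost without D20 replicate 1 (−2.42 and −1.76) or 2 (−2.59 and −2.01), and that of subunit II also without D75 replicate 2 (−1.29).

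Chlorophyll synthesis enzymes were lower in 19 of 58 (32.8%) and higher in 4. Protochlorophyllide reductase, which makes chlorophyllide in the light, fell in CL15566.Contig1 from 49.6 and 73.8 to 0.0669 and 0.338 scaled FPKM (log2 −8.19 ± 0.70, adjusted p = 6.97e-05) and in CL4541.Contig1 from 245 and 325 to 3.62 and 20.6 (log2 −4.56 ± 0.80, adjusted p = 0.00201), the latter not called with the 4 libraries only (adjusted p = 0.0508). Coproporphyrinogen-III oxidase (Unigene14622), an earlier step, had 216 and 170.3 and then 119 and 129.7 (log2 −0.64 ± 0.39, adjusted p = 0.245), and was called lower with library totals only (−1.06). Pheophytinase (Unigene28805), an enzyme of chlorophyll breakdown, had 144 and 157 at D75 and 322 and 283 at D20 without passing the test (log2 1.01 ± 0.45, adjusted p = 0.116). Homogentisate phytyltransferase (CL14506.Contig1), an enzyme of vitamin E synthesis, rose from 12.4 and 22.0 to 95.7 and 57.2 (log2 2.15 ± 0.51, adjusted p = 0.00945), a call lost without D20 replicate 1 (1.82).

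**Figure D4:**
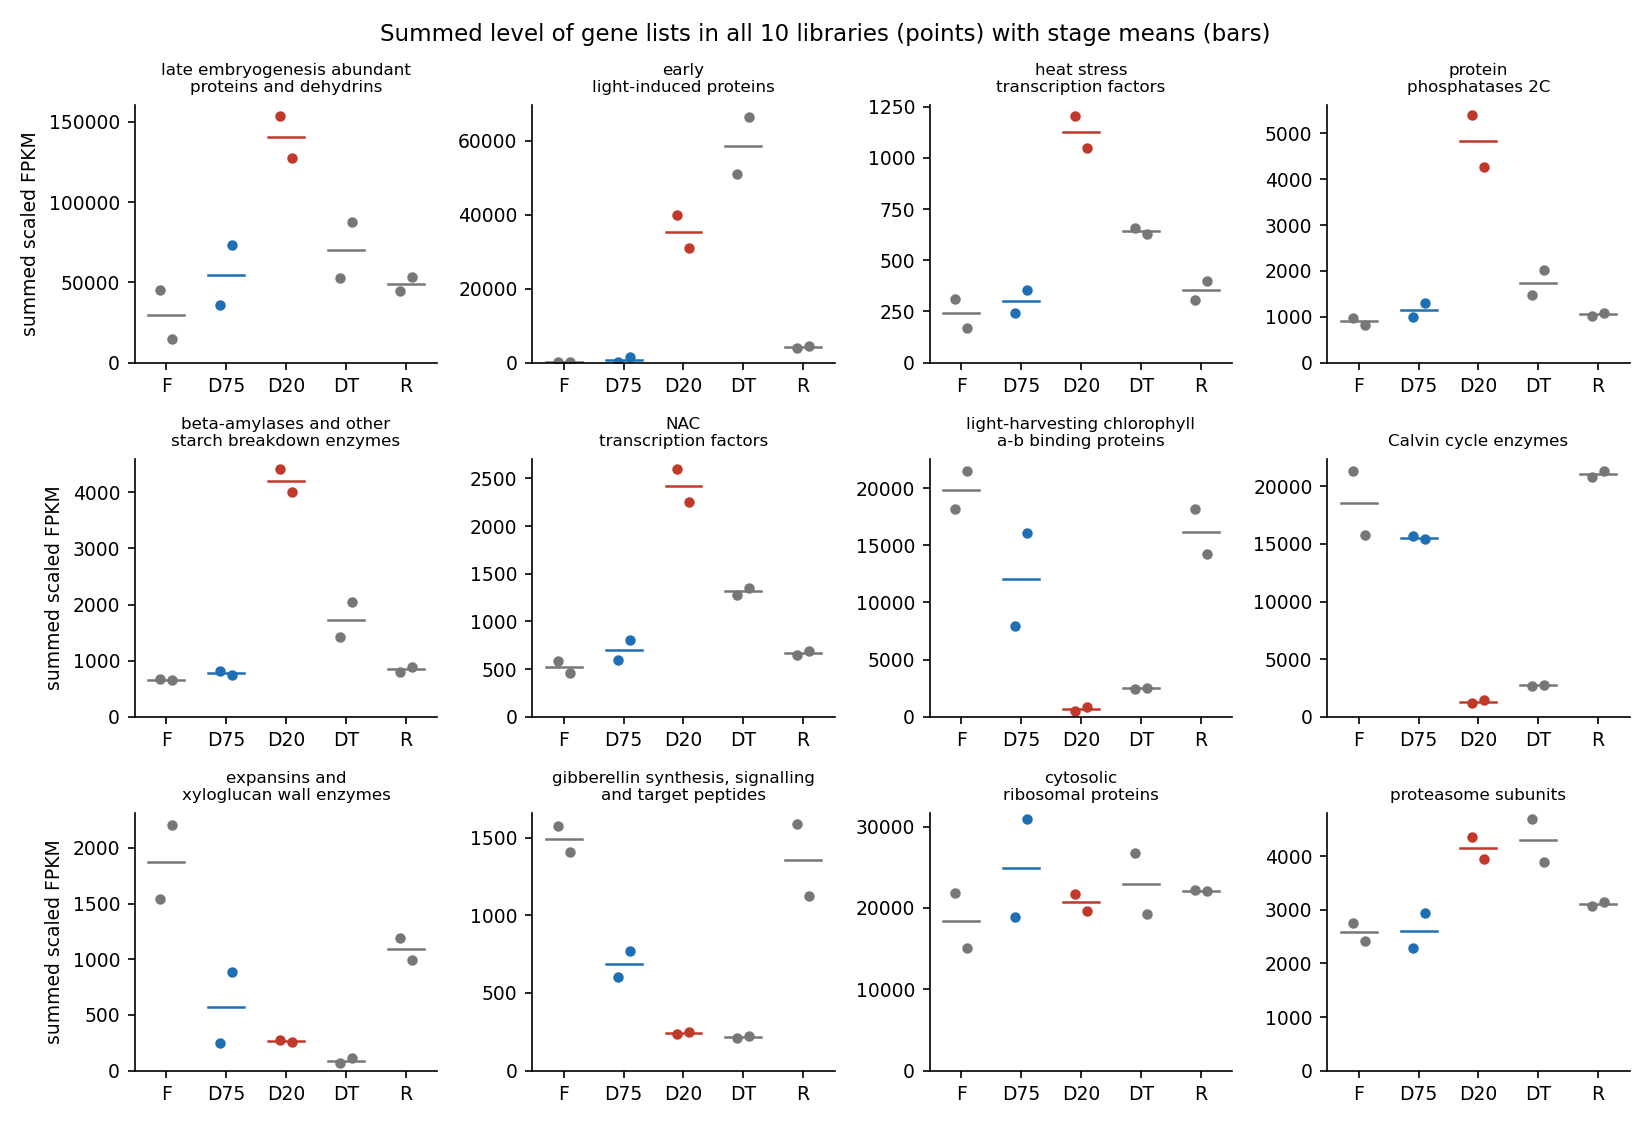
Summed scaled FPKM of 12 gene lists in all 10 libraries (points, 2 per stage) with stage means (bars), D75 in blue, D20 in red and the other stages, whose raw reads had another length, in grey. LEA proteins sum to 153600 and 127619 at D20, and light-harvesting proteins to 486 and 826.

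Wall and surface genes were called lower more often than higher, and single members reached very low counts. Expansins, which loosen cell walls, and xyloglucan enzymes were lower in 18 of 74 (24.3%) and higher in 8 (10.8%), with a median log2 of −2.28 that shrank to −0.08 at the floor, since 23 members had no fragment at D20. Without D75 replicate 1, 28 of them were lower, and without D75 replicate 2, 15 were higher. Their summed level was 246 and 890.1 scaled FPKM at D75 and 274 and 253 at D20, so D75 replicate 1 lay just below both D20 libraries and D75 replicate 2 far above. Expansin-A8 (Unigene17772) stood at 58.5 and 198 scaled FPKM at D75 and at 0.243 and 0.0819 at D20 (log2 −9.53 ± 0.89, adjusted p = 8.66e-05). Expansin-A2 (Unigene17758) had 37.1 and 133 and then 0.108 and 0, and its D75 to D20 fragment ratio was 1490, with a counting interval of 266 to 58700 (95%, counting error only). Pectin-modifying enzymes were lower in 40 of 129 (31.0%) and higher in 9, with a median of −2.43 (−0.77 at the floor). Pectate lyase 18 (Unigene32937), which cuts pectin, had 38.9 and 170.4 and then 0.111 and 0, a ratio of 1770 (489 to 14600). Genes of cuticle, wax and surface lipids were lower in 53 of 161 (32.9%) and higher in 4. In the fit without D75 replicate 2, 14 pectin and 11 surface genes were higher. Cellulose synthases and wall glycoproteins, a list of 625 tested members, were lower in 136 (21.8%) and higher in 93 (14.9%). Their median was −0.50 (−0.17 at the floor), beside −0.50 (−0.18) over all unigenes. Their sum was 11352 and 23979 at D75 and 27560 and 28335 at D20.

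Hormone genes tied to growth were called lower more often than higher. Auxin response and transport genes were lower in 122 of 303 (40.3%) and higher in 10, with a median log2 of −2.02 (−1.57 at the floor). Cytokinin genes were lower in 33 of 115 (28.7%) and higher in 3, and gibberellin genes lower in 28 of 85 (32.9%) and higher in 7. Without D75 replicate 2 the higher ones numbered 26, 12 and 15. Gibberellin-regulated protein 9 (CL5985.Contig4), a small secreted peptide, went from 116 and 115 scaled FPKM to 2.96 and 4.56 (log2 −4.93 ± 0.50, adjusted p = 0.000116). The auxin-repressed 12.5 kDa protein Unigene1646, a transcript that auxin lowers in other species, fell from 4072 and 3420.2 to 299 and 702 (log2 −2.90 ± 0.76, adjusted p = 0.0161), a call lost without D20 replicate 1 (−2.33) or 2 (−3.58). A second such contig, CL1747.Contig2, had 427 and 398 and then 420.0 and 458. The 13S-lipoxygenase 2-1 (CL15498.Contig2), an enzyme of jasmonate synthesis, fell from 266 and 309 to 3.71 and 2.24 (log2 −6.59 ± 0.57, adjusted p = 6.97e-05). DELLA protein GAI1 (CL14035.Contig3), a repressor of gibberellin responses, fell from 105 and 63.4 to 19.7 and 25.8 (log2 −1.89 ± 0.41, adjusted p = 0.00648), a call lost without D20 replicate 1 (−1.62).

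In secondary metabolism single members of a family went opposite ways, and counts and summed levels could differ. For class III peroxidases the sum went from 164 and 444 scaled FPKM at D75 to 1724 and 1084 at D20, where peroxidase 12 alone stood at 1696 and 1061. Class III peroxidases, wall enzymes, were lower in 13 of 37 (35.1%) and higher in 2 (5 without D75 replicate 2). Peroxidase 42 (CL4670.Contig2) fell from 54.0 and 22.2 scaled FPKM to 0.291 and 0.708 (log2 −6.23 ± 0.74, adjusted p = 0.000247), whereas peroxidase 12 (Unigene19468) rose from 36.9 and 299.5 to 1696 and 1061 (log2 3.04 ± 0.83, adjusted p = 0.0193, with the call lost without D20 replicate 1 at 2.74). The lignin enzyme cinnamoyl-CoA reductase 1 (Unigene10001) fell from 320.5 and 445 to 40.5 and 39.0 (log2 −3.27 ± 0.45, adjusted p = 0.000508), and caffeoylshikimate esterase (CL14363.Contig1) of the same pathway rose from 24.0 and 41.0 to 363 and 475 (log2 3.69 ± 0.52, adjusted p = 0.000636). Thaumatin-like protein 1 (CL17597.Contig3), a defence-type protein, went from 0.0296 and 0.322 to 255 and 214 (log2 10.40 ± 0.85, adjusted p = 7.03e-05). Aquaporins, the water channels of membranes, were lower in 18 of 50 (36.0%) and higher in 4 (9 without D75 replicate 2), though the most abundant members, TIP1-1 (CL14445.Contig3) and PIP1-2 (CL4872.Contig1), had overlapping libraries and log2 changes of 0.06 ± 0.62 and −0.07 ± 0.70 (adjusted p = 0.967 for each).

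Protein synthesis genes were split by compartment. Chloroplast ribosomal proteins were lower in 87 of 219 (39.7%) and higher in 10 (19 without D75 replicate 2), with a median log2 of −1.44, with a fall in L15 (Unigene38335) from 320.2 and 418 to 111 and 96.4 scaled FPKM (log2 −1.83 ± 0.41, adjusted p = 0.00759, with the call lost without D20 replicate 1 at −1.85 or 2 at −1.67). Chloroplast L1 (CL8885.Contig3) rose from 132 and 138 to 329 and 312 (log2 1.25 ± 0.42, adjusted p = 0.0453), a call lost without D75 replicate 1 (1.216) or 2 (1.275). Cytosolic ribosomal proteins were lower in 75 of 966 (7.76%) and higher in 13, both below the shares over all unigenes, with a median of −0.35. The lower ones numbered 165 without D75 replicate 1 and 157 with library totals only. Without D75 replicate 2 the balance turned to 94 higher and 74 lower, with a median of 0.11. Their summed level was 18881 and 30887 at D75 and 21721 and 19679 at D20. Proteasome subunits were higher in 38 of 241 (15.8%) and lower in 9 (3.73%), with a median of 0.36 that was −0.04 with library totals only, and 69 were higher and 18 lower without D75 replicate 2. Autophagy proteins were higher in 15 of 71 (21.1%) and lower in 5 (8 without D75 replicate 2), with a median of 0.24 (−0.06 with library totals only), and ATG8i (Unigene33449), a protein that coats autophagosomes, rose from 32.8 and 61.3 to 238 and 253 (log2 2.38 ± 0.43, adjusted p = 0.00224).

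Lists of other functions were mixed. Calcium sensors and calcium-regulated kinases were higher in 67 of 348 (19.3%) and lower in 35 (10.1%). Trehalose phosphate enzymes, which make a signalling sugar, were higher in 21 of 67 (31.3%) and lower in 8 (11.9%). Subunits of the mitochondrial respiratory chain were higher in 21 of 216 (9.72%) and lower in 9 (4.17%). Over all tested unigenes the shares were 10.1% higher and 15.3% lower, so the respiratory chain had a higher share near that of all unigenes. Cell cycle, replication and histone genes were lower in 73 of 386 (18.9%) and higher in 10 (2.59%). Tubulins, actins and kinesins of the cytoskeleton were lower in 76 of 440 (17.3%) and higher in 31 (7.05%). These lower shares were near the 15.3% over all tested unigenes, as was that of the DNA repair proteins below (16.0%). Flavonoid and anthocyanin enzymes, which make pigments and light screens, were lower in 40 of 113 (35.4%) and higher in 9 (7.96%). Leaving out D75 replicate 2, the higher ones numbered 106 among the calcium genes, 52 in the respiratory chain, 52 in the cell cycle list, 55 in the cytoskeleton list and 20 among flavonoid enzymes, and 13 trehalose phosphate enzymes were lower. ABC transporters were lower in 72 of 245 and higher in 29, and DNA repair proteins lower in 25 of 156 and higher in 10, the latter with 46 lower without D75 replicate 2.

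A set of transcripts was high at D75 alone. Of the 13056 lower unigenes, 1722 (13.2%) had a D75 mean at least 2 times that of F, DT and R each and are called early-peak here. In 1021 of these (59.3%) both D75 libraries lay above all other 8 libraries, whereas in 561 D75 replicate 1 exceeded replicate 2 more than 4-fold. Called again were 977 (56.7%) without D75 replicate 1 and 1621 (94.1%) without replicate 2. Late-peak unigenes, with a D20 mean at least 2 times that of every other stage, numbered 2313 (26.9% of the higher ones), and both D20 libraries lay above the other 8 in 2257 of them (97.6%).

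Examples of early-peak genes with both D75 libraries on top were chosen after their values were seen, except the RuBisCO activase contig above and the F-box protein of the primer set. Over all 85267 tested unigenes such a pattern was seen in 1021, and in the ethylene pathway list in 8 of 80. That list had 7 members higher (8.75%) and 17 lower (21.2%), with 13 higher without D75 replicate 2. EIN3-binding F-box protein 2 (CL8725.Contig4), which targets the ethylene factor EIN3 for breakdown, stood at 72.8 and 66.9 scaled FPKM at D75 and at 2.86 and 10.4 at D20 (log2 −3.40 ± 0.71, adjusted p = 0.00513), with means of 22.2 in F, 8.69 in DT and 3.35 in R. The call was lost without D20 replicate 1 (−2.67). Ethylene receptor 1 (CL10907.Contig2) had 22.5 and 23.5 and then 1.86 and 2.02 (log2 −3.57 ± 0.46, adjusted p = 0.000399). By contrast, 1-aminocyclopropane-1-carboxylate oxidase (CL10894.Contig3), which makes ethylene, rose from 2.69 and 90.7 to 727 and 1017 (log2 4.22 ± 1.11, adjusted p = 0.0163). Its call was lost without D20 replicate 2 (4.03), and the sum over its cluster changed by a log2 of 1.62 without a call.

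Clock and CONSTANS-like genes, which track day length and time of day, were lower in 72 of 218 (33.0%) and higher in 20 (9.17%), and in 14 of them both D75 libraries were on top in an early peak. CONSTANS-LIKE 5 (CL4661.Contig3) had 56.5 and 53.5 scaled FPKM at D75 and 2.90 and 4.95 at D20 (log2 −3.81 ± 0.43, adjusted p = 0.000187). CONSTANS-LIKE 4 names unigenes that went opposite ways, with Unigene5349 falling from 50.9 and 84.4 to 6.47 and 11.7 (log2 −2.90 ± 0.44, adjusted p = 0.000893) and Unigene28895 rising from 49.4 and 83.1 to 345 and 279 (log2 2.23 ± 0.51, adjusted p = 0.0084, with the call lost without D20 replicate 1 at 2.16). The hour at which leaves were taken was not among the labels.

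DREB and ERF factors held members of both peak sets. Of 280 tested, 20 were early-peak, 14 of these with both D75 libraries on top, and 25 were late-peak. Among all 85267 tested unigenes, 1722 were early-peak, 1021 of these with both D75 libraries on top, and 2313 were late-peak. Ethylene-responsive factor CRF2 (CL14238.Contig2), of the cytokinin response factor group, had 3.83 and 49.8 scaled FPKM at D75 and 0.320 and 0.648 at D20 (log2 −5.77 ± 1.02, adjusted p = 0.00201), not called with the 4 libraries only (adjusted p = 0.0654). On the late side, an ABR1-like factor (Unigene10660), related to an Arabidopsis repressor of ABA responses, had 0 fragments in both D75 libraries and 18.4 and 22.3 at D20, at least 62.3-fold higher.

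Further early-peak genes were copper transporter 2 (CL2575.Contig1), a membrane importer of copper, with 310.1 and 440.2 scaled FPKM at D75 and 27.1 and 46.5 at D20 (log2 −3.35 ± 0.47, adjusted p = 0.000576), and NAC transcription factor 29 (Unigene23701) with 6.64 and 14.2 and then 0.264 and 0.178 (log2 −5.48 ± 0.85, adjusted p = 0.00105). The most abundant early-peak unigene, mitochondrial manganese superoxide dismutase (Unigene43092), had 4481 in D75 replicate 1 and 1323 in replicate 2, and 542 and 363 at D20 (log2 −2.68 ± 0.77, adjusted p = 0.0245). Without D75 replicate 1 its log2 change was −1.55, and the call was lost there and without D20 replicate 1 (−2.92) or 2 (−2.36).

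The stage of highest mean placed both sets of unigenes in the drying series. Of the 8595 unigenes higher at D20, 6542 (76.1%) had their highest mean at D20 and 1941 (22.6%) in DT. Of the 13056 lower unigenes, 5842 (44.7%) had theirs at D75, 4564 (35.0%) in F and 2572 (19.7%) in R. The dry state was then compared with fresh leaves (DT against F), libraries that share none with D75 and D20, where 9.46% of tested unigenes were higher and 13.1% lower. Both contrasts came from the same fit, which gave each unigene a spread shared by all stages, so calls in them are not independent. Of the unigenes higher at D20, 5151 (59.9%) were also higher in DT than in F, and 20 were lower. Of those lower at D20, 6873 (52.6%) were also lower in DT than in F, and 17 were higher. The shares were smaller among the peaks: 1022 of 2313 late-peak unigenes (44.2%) were also higher in DT than in F, and 273 of 1722 early-peak unigenes (15.9%) were also lower. The peak rule uses the F and DT means, so these last shares are descriptions.

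**Figure D5:**
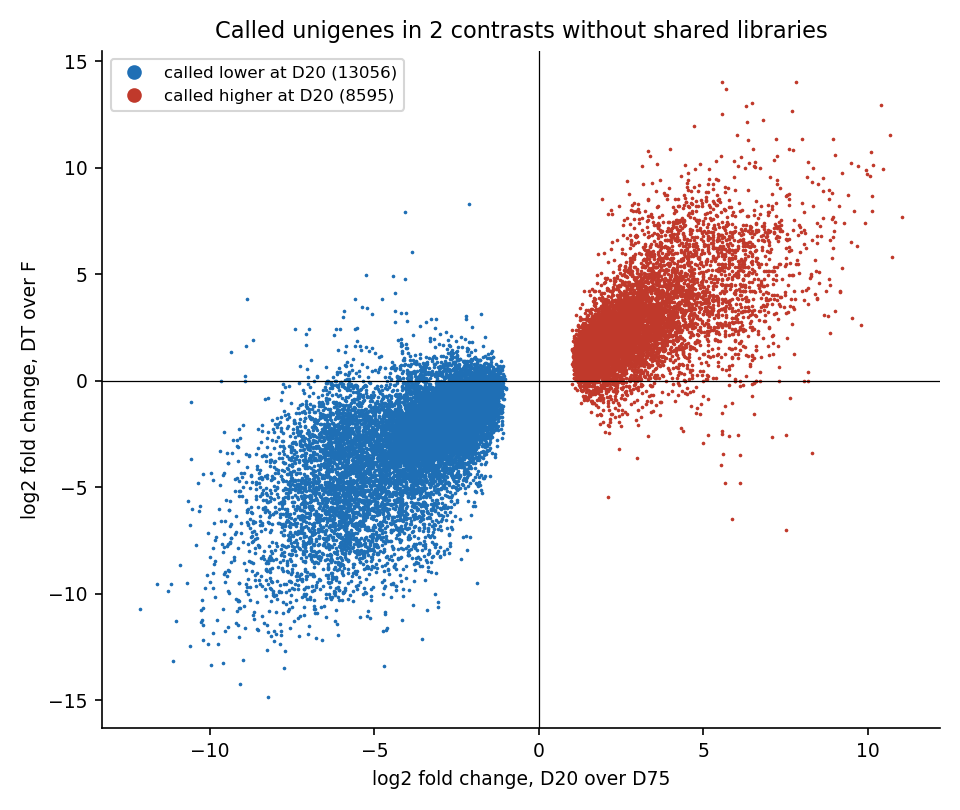
Log2 fold change of DT over F (vertical axis) against that of D20 over D75 (horizontal axis) for the unigenes called higher (red) or lower (blue) at D20, 1 point each. Of the 8595 higher unigenes 59.9% were also called higher in DT, and of the 13056 lower ones 52.6% also lower.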

How the data were processed

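The authors used SeqPrep and Sickle to trim reads, built the unigenes with Trinity and named RSEM for abundance; no genome was used, and versions are not given in the sources used here. Their deposited table gives whole fragment counts per unigene and library, and the authors' FPKM, each count divided by unigene length and library total. Unmapped columns of per-sample values numbered 0. Of the table's 142479 lines, 142473 named a unigene.

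Counts were tested with edgeR 4.0.16 (R 4.3.3; TMM, glmQLFit, glmQLFTest), 1 coefficient per stage over all 10 libraries, for unigenes that reached an FPKM of 1 in 2 or more libraries, with Benjamini-Hochberg adjustment. Standard errors are the log2 change over the root of F. The fit had 5 residual degrees of freedom and a common biological coefficient of variation of 0.44. The floor was 3 fragments per library, and counting intervals (95%) cover counting error only. Counts of the D20 against D75 comparison were simulated over 85267 unigenes. Calls at an adjusted p below 0.05 recovered 8 of 50 unigenes changed 4-fold, 43 of 50 changed 8-fold and all 50 changed 16-fold. Of the unigenes left unchanged, 27 were called. The simulation changed far fewer unigenes than the 25.4% called in the data, each with a mean of at least 50 fragments. The recovered shares therefore do not carry over to the data.

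Named unigenes were, for each direction, the 15 largest changes among calls with a higher-stage mean of at least 10 scaled FPKM, no overlap and a named function, at most 1 per cluster and description; the 10 most abundant early-peak and the 10 most abundant late-peak unigenes; the 2 most abundant members of each of 66 lists; and the 20 unigenes with primers. Any other named unigene was picked with its values in view. Members and lists were chosen with earlier results of these data known, and list patterns were corrected after matched names and counts had been seen. Alternatives were RLE scaling, library totals only, filterByExpr, no filter, the 4 libraries only, a replicate block, sums per assembly cluster, no rRNA or plastid unigenes, edgeR's exact test, DESeq2 1.42.0, limma 3.58.1 on log2(FPKM + 1) and log2(FPKM + 0.1), and each library left out. Summaries used Python 3.11.15, scipy 1.17.1, numpy 2.4.6 and pandas 2.3.3, and figures matplotlib 3.10.9.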

Additional observations from a re-analysis of the deposited data

How the results depend on the processing

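The 4 counts kept within 1.5 times under RLE scaling, library totals only, the replicate block and without rRNA and plastid unigenes. The calls at 0.05 kept within it under DESeq2 (8448 higher, 11362 lower), edgeR's exact test, filterByExpr, limma and no filter. Against 8595 higher and 13056 lower, the 4 libraries only gave 2080 and 2722, cluster sums 5317 and 7177, and the limit of 0.001 gave 806 and 1475 DEGs. DEGs numbered 3384 higher and 3965 lower with DESeq2, 3680 and 5982 with the exact test, 483 and 886 with filterByExpr, 3045 and 6002 with no filter, 0 and 0 with the 4 libraries only, and 302 higher with limma on log2(FPKM + 0.1). Leaving out 1 library gave 4102 to 13542 higher and 4496 to 16488 lower, and 0 to 4492 and 0 to 5889 DEGs. The cause of these shifts was not tested, beyond the loss of samples in fits with fewer libraries.

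The share of higher unigenes also higher in DT than in F, 59.9%, was 55.8% at 0.001, 58.0% with RLE, 63.4% with filterByExpr, 57.8% with library totals only, 62.2% with limma on log2(FPKM + 0.1), 57.9% with no filter, 63.8% with cluster sums, and 32.6% to 73.3% with 1 library left out. The share of lower unigenes also lower, 52.6%, was 49.2% at 0.001, 55.9% with DESeq2, 54.7% with RLE, 51.5% with the exact test, 59.2% and 54.2% with limma at offsets of 0.1 and 1, 47.9% with no filter, and 31.0% to 71.4% with 1 library left out. The 4 libraries only hold no DT or F library and give neither share.

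With replicate number as a block, 7618 unigenes were higher, 11512 lower, and 54.1% of the lower ones also lower in DT. Deviations of same-numbered D75 and D20 libraries correlated at −0.08 and of other stage pairs at −0.19 to 0.08. With 1 deviation per stage and unigene, this cannot tell whether same-numbered libraries shared a batch or plants. The block changed no call of the 76 named unigenes, whereas 23 lost theirs with the 4 libraries only. With the 4 libraries only, 9 of 122 list counts stayed within 1.5 times. Cluster sums reversed CL11074.Contig8 (0.38), CL8620.Contig2 (0.31) and CL9828.Contig7 (2.70), and CL8620.Contig2 ran from −7.28 to 1.74 with 1 library left out. Counting early peaks only where both D75 libraries exceed the other 8, a choice made after seeing the data, kept 1021 of 1722. Changes of 4-fold were mostly missed in simulated counts, but far fewer unigenes changed there than were called here. How many such changes were missed in the data is therefore not known. With 2 libraries per stage, an absent call does not show an unchanged level.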

Other observations

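Contigs of one assembly cluster, which may be alleles, splice forms or close paralogs and may share reads, did not always move together. Of 11455 clusters with at least 2 tested contigs, 2781 had a contig called higher at D20 and 4150 one called lower, and 388 (3.39%) had contigs called both ways. In cluster CL9828 of basic 7S globulins, Contig8 rose from 3.85 and 4.41 to 99.3 and 44.6 scaled FPKM (log2 4.12 ± 0.50), while Contig7 fell from 4.20 and 18.5 to 0 in both D20 libraries, and the cluster sum changed by a log2 of 2.70. Contig8 of cluster CL11074, a dynamin-related protein 1E of membrane traffic, had 11.9 and 9.19 at D75 and 0 in both D20 libraries, while the sum over its cluster changed by a log2 of 0.38.

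Some transcripts stood high in 1 library alone. Sulfated surface glycoprotein 185 (CL6531.Contig1) had 599 scaled FPKM in D75 replicate 1, 1.33 in D75 replicate 2, and 0.581 and 0.588 at D20. Its log2 change was −8.94 ± 2.11 (adjusted p = 0.0125, edgeR quasi-likelihood test) and −1.15 without D75 replicate 1, with no call, and the call was also lost without D20 replicate 1 (−8.85) or 2 (−8.89).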
